A study of Mus musculus with 9 samples.

Results

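Ribosome footprints were examined for the genes of FGF, PDGF, VEGF and EGF signalling in 3 immortalized mouse striatal cell lines. Membership was set by a rule on gene symbols, which took in the FGF ligands and receptors, every gene whose symbol starts with Pdgf, the VEGF ligands with the receptors Flt1 and Kdr, the EGF-type ligands Areg, Ereg, Hbegf and Tgfa, the neuregulins and the ERBB receptors, Hgf, Met and Kit, and as feedback inhibitors the Sprouty genes (Spry) and the dual specificity phosphatases Dusp4, Dusp5 and Dusp6. Other ligands of EGFR, such as EGF itself, were outside the rule. The set held 62 of the 36410 rows of deposited gene counts. Control cells (STHdhQ7/Q7) carry Htt alleles with 7 glutamines, HD-het cells (STHdhQ7/Q111) carry 1 knock-in allele with 111 glutamines, and HD-homo cells (STHdhQ111/Q111) carry 2 of them. Huntingtin, the product of Htt, is the protein whose glutamine expansion causes Huntington disease. All lines are of C57/BL6 background per the labels, and each was grown in 3 independent rounds of culture that gave 3 libraries. Cycloheximide, which halts elongating ribosomes, was given for 10 min before harvest, lysates were digested with RNase T1 and RNase A, and fragments of 26 to 32 nt were taken from the 80S monosome. As 1 cell line stood for each genotype, genotype and line cannot be told apart, and the p-values below measure the spread between culture rounds of a line. All values are footprint levels, which were not set against mRNA.

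Growth factors of these families are secreted or membrane-bound ligands that bring receptor tyrosine kinases together on the cell surface. The paired receptors phosphorylate each other and recruit adaptors such as GRB2 and GAB proteins, which pass the signal to RAS, the RAF and MEK kinases and ERK. ERK in turn switches on genes whose products dampen the pathway, among them Sprouty proteins, which act between receptor and RAF, and dual specificity phosphatases, which remove phosphate from ERK. In the embryonic brain FGF and EGF keep neural precursors dividing, PDGF receptor alpha marks oligodendrocyte precursors, PDGF receptor beta marks pericytes, and VEGF guides vessel growth.

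Library totals ran from 22504543 to 41888701 counts. Levels are given as CPM, counts scaled to 1e6 of a library total adjusted by TMM factors, and a count of 3, the limit that a count of 0 allows, corresponded to between 0.0714 and 0.142 CPM. This floor covers counting error only. The correlation of log2 CPM was at least 0.988 within a line and at most 0.93 between lines, and the biological coefficient of variation came to 8.81% for control, 10.7% for HD-het and 16% for HD-homo cells. The label striatal was compared with marker genes. Among 12 markers of striatal projection neurons, Drd1, Drd2, Bcl11b and Gad1 lay at or under the floor in every line, whereas Foxp1 averaged 33.4, 43.1 and 56.9 CPM and Ppp1r1b 12, 5.18 and 10.5 CPM from control through HD-het to HD-homo, and the list summed to between 44.3 and 75.4 CPM. Among 12 markers of the striatal precursor, Gsx2 and Isl1 lay at or under the floor in every line. Others of this list were read in all lines, among them Meis2 at 25.9, 38.1 and 10.6 CPM, Ebf1 at 13.1, 16.7 and 18.7 CPM, Dlx2 at 9.25, 2.11 and 19.9 CPM, and the filament genes Nes and Vim. Nes averaged 400 CPM in control libraries, 1090 in HD-het libraries and 7.01 in HD-homo libraries.

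The members differed widely in level. Footprints were absent from all 9 libraries for 11 members, which were 8 of the 22 FGF ligands, Nrg3, Nrg4 and Kit. Another 9 members had a few counts in some library but did not pass the filter on low counts, and none of these exceeded 0.304 CPM in any library (Fgfr4 in HD-het replicate 1 was the highest). The remaining 42 members were tested. Levels of different genes were compared as CPM per kb of coding sequence. On that scale the heparin-binding EGF-like factor Hbegf ranked first of all members in each line, with 522 for control, 1160 for HD-het and 520 for HD-homo cells. The next members were Areg (341) and Vegfa (98.9) in control, Vegfa (211) and Ereg (168) in HD-het, and Ereg (408) and Fgf7 (269) in HD-homo cells. Pdgfra moved from rank 32 in control and in HD-het to rank 6 in HD-homo cells, at 1.16, 2.1 and 47.5 CPM per coding kb.

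**Figure D1:**
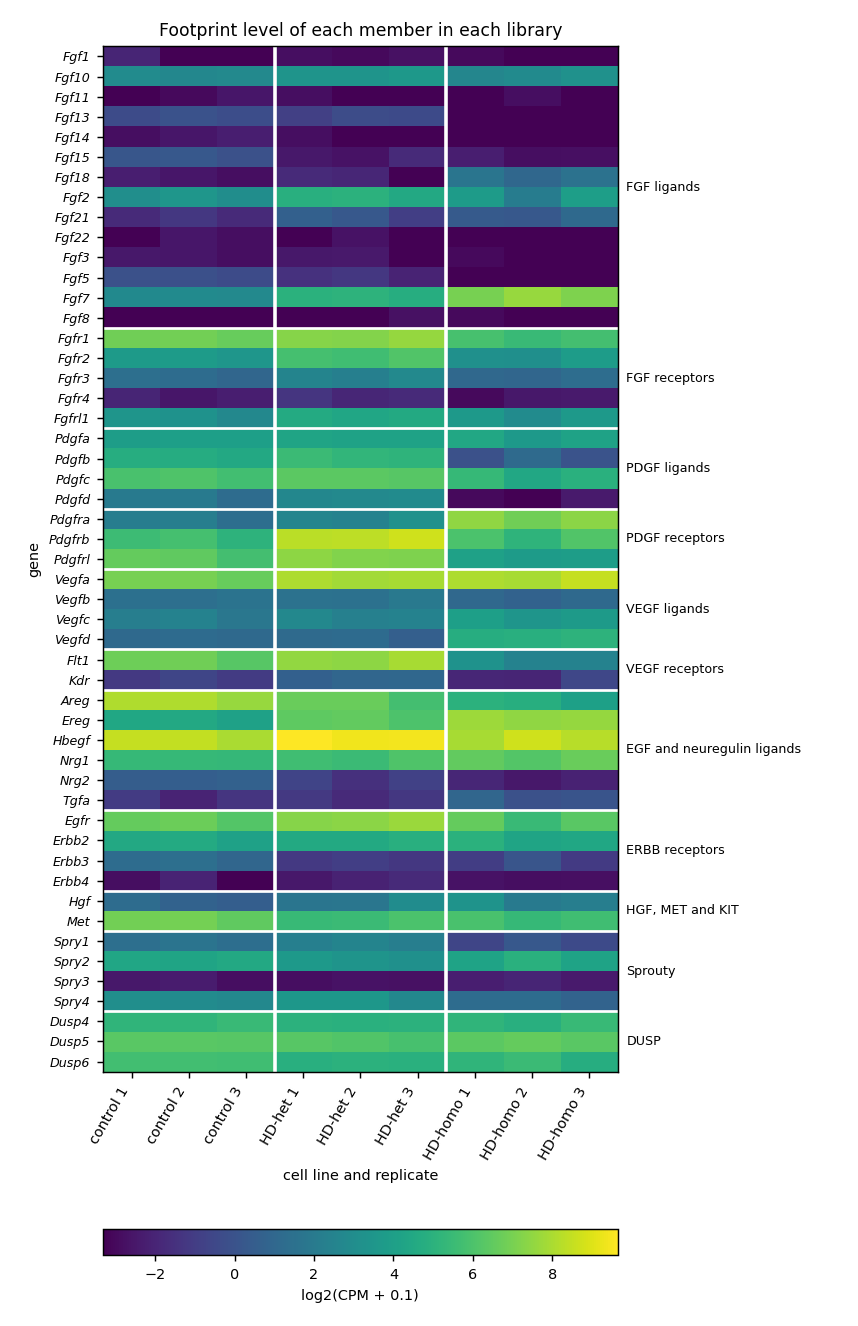
Footprint level of the members with a count in at least 1 library, as log2(CPM + 0.1) by colour, with 1 row per gene grouped by role and 1 column per library. Replicates of a line resemble each other, Pdgfra, Fgf7 and Vegfd are bright in the HD-homo columns, and Flt1, Pdgfb and Pdgfd are dark there.

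To ask how far these genes differed between the lines, HD-het and HD-homo cells were each compared with control and with each other. With edgeR's quasi-likelihood test at an adjusted p-value under 0.05 over all 12678 genes tested, 30 of the 42 tested members differed between HD-het and control cells, 28 between HD-homo and control, and 32 between HD-homo and HD-het. The background over all genes was 60.1%, 45.7% and 67.5%, so a single call carries little by itself, and the size and direction of the changes are given below. In HD-het cells 22 members (52.4%) were higher and 8 (19.0%) lower than in control, where 31.0% of all genes were higher and 29.1% lower. In HD-homo cells 11 members (26.2%) were higher and 17 (40.5%) lower than in control, against 23.3% and 22.3% of all genes. Set against HD-het cells, HD-homo cells had 10 members (23.8%) higher and 22 (52.4%) lower, against 34.6% and 32.8% of all genes. A member passes the filter through any 1 line in which it is high, so these counts describe the tested members only.

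The size of the members' changes was set beside that of all genes tested. The median log2 fold change of the tested members in HD-het against control cells was 0.62, or 0.52 with Fgf18, whose control libraries lie at the floor, set to its bound. The median over all genes was 0.02. The median of the absolute values was 0.96 for the members and 0.46 for all genes. In HD-homo against control cells the members' median was -0.12 and the median absolute value 1.45, against 0.32 for all genes. In HD-homo against HD-het cells the median was -0.62 and the median absolute value 1.36, or 1.31 with members at the floor set to their bounds, against 0.55 for all genes. A change of at least 2-fold was called for 19, 28 and 25 members in HD-het against control, HD-homo against HD-het and HD-homo against control, where 20.8%, 27.3% and 17.2% of all genes passed the same rule.

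The calls fell into a few patterns, which share libraries and so are not independent of each other. HD-het cells were higher than both other lines for 6 members that were also lower in HD-homo than control cells (Fgfr1, Flt1, Pdgfb, Pdgfd, Pdgfrl and Spry1) and for 9 members without a called difference between HD-homo and control, among them Pdgfrb, Fgfr2, Egfr and Hbegf. These patterns held 14.3% and 21.4% of the tested members, and 6.79% and 12.5% of all genes. A rise in HD-het over control and a further rise in HD-homo over HD-het cells was called for 4 members, Ereg, Fgf7, Nrg1 and Pdgfra (9.52% of the tested members and 2.64% of all genes). The opposite order was called for 3 members, Areg, Nrg2 and Fgf5 (7.14% and 1.75%). Another 4 members were higher in HD-homo than in both other lines with no call between HD-het and control, which were Fgf18, Tgfa, Vegfc and Vegfd (9.52% and 7.28%). Fgf13, Pdgfc, Spry4 and Vegfb were lower in HD-homo than in both other lines with no call between HD-het and control (9.52% and 6.90%). HD-het cells were lower than both other lines, with no call between HD-homo and control, for Spry2 alone (2.38% and 14.6%). Both mutant lines were higher than control without a call between them for 3 members (7.14% and 4.39%), and lower for 4 (9.52% and 3.57%). No call was made for Dusp4, Erbb2 and Pdgfa in any comparison, as for 17.8% of all genes.

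**Figure D2:**
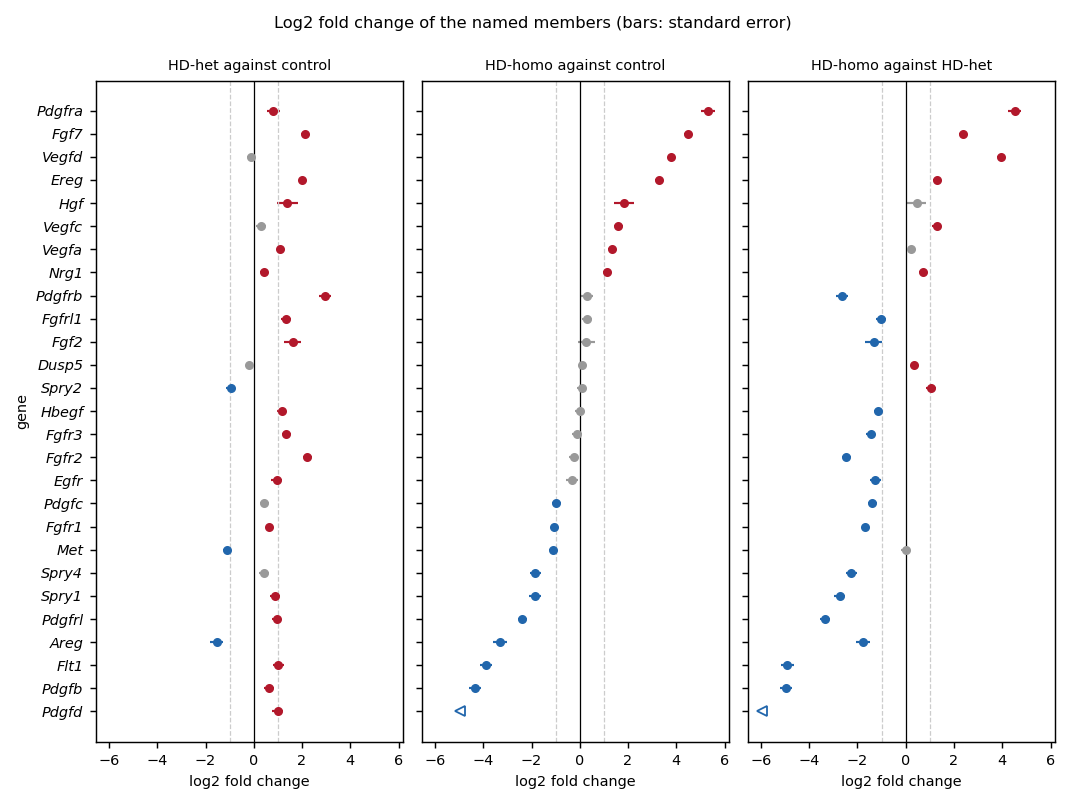
Log2 fold change of the 27 members described by library values, with bars of 1 standard error from the fit, in the 3 comparisons. Red marks members called higher, blue members called lower and grey members without a call, dashed lines mark a 2-fold change, and open triangles for Pdgfd mark a lower bound on the size of the change. Points to the right dominate in HD-het against control and points to the left in HD-homo against HD-het.

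Several members lie close to each other in the genome. By RefSeq on GRCm38.p6, Ereg occupies chr5:91074617-91093649 and Areg chr5:91139599-91148432, both on the plus strand, with 45.9 kb between them. On the same chromosome Pdgfra (chr5:75151322-75198206), Kit (chr5:75574987-75656722) and Kdr (chr5:75932827-75979072, minus strand) follow each other within gaps of 376.8 and 276.1 kb. Ereg and Areg moved in opposite directions, and of the other group Pdgfra rose in HD-homo cells while Kit had no count in any library and Kdr stayed under 2 CPM. The loci of 8 members overlap another counted gene, among them Fgf2, which shares its locus with Nudt6, Erbb2 with Mien1, Fgf7 with Fam227b and Pdgfd with Ddi1. As the use of strand in counting is not given in the sources used here, reads from such partners cannot be told apart, and Nudt6 held 599 counts over all 9 libraries, Mien1 5198, Fam227b 11 and Ddi1 26.

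The 200 bases before the annotated start are shown for the members with the largest called changes in each direction between HD-homo and control cells, among those described by library values below with a promoter in the RefSeq table of GRCm38.p6 whose window touches no annotated exon. They are written 5′ to 3′ on the gene's strand, and capitals mark the matches to 5 motifs searched on both strands: TATAAA (the TATA box), CCAAT (the CCAAT box), GGGCGG (the GC box), TGANTCA (the AP-1 site) and TGACGTCA (the cyclic AMP response element). No 2 marked matches overlap. The windows are chr5:75152051-75152250 for Pdgfra, chr2:126034458-126034657 for Fgf7, chr5:91139399-91139598 for Areg and chr3:37639747-37639946 for Spry1, all on the plus strand. The start that the table gives for Pdgfra lies inside the span of the gene, so that this window is intronic for the annotated transcript that starts upstream.
Pdgfra, higher in HD-homo: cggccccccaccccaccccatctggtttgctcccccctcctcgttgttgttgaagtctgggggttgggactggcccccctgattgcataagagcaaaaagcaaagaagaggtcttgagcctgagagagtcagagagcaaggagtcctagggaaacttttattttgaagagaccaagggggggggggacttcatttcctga
Fgf7, higher in HD-homo: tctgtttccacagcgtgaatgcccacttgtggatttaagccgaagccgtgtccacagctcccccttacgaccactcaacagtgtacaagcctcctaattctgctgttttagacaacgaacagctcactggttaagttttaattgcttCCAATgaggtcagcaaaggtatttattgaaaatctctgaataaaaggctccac
Areg, lower in HD-homo: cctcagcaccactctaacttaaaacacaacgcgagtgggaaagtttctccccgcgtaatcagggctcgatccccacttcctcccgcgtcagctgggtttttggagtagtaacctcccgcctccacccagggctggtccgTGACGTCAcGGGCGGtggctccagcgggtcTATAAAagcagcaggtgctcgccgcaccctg
Spry1, lower in HD-homo: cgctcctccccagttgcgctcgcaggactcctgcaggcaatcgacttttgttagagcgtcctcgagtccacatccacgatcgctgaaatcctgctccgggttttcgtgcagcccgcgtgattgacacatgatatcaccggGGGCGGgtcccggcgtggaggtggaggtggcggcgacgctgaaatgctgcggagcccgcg
None of the 5 motifs matched in the Pdgfra window, and Fgf7 held CCAAT between 53 and 49 bases before its start. Areg held TGACGTCA, whose first base lay 61 bases before the start. It also held GGGCGG at 52 bases and TATAAA at 31 bases. Spry1 held GGGCGG. Over all 32851 promoter windows of this length, 9.96% held TATAAA, 29.3% CCAAT, 31% GGGCGG, 5.48% TGANTCA and 1.47% TGACGTCA. Of the 44 members with a promoter in the table, which had 55 such windows, 26 held GGGCGG, 10 CCAAT, 5 TATAAA and 3 TGANTCA. Only Areg and Flt1 held TGACGTCA. Both were lower in HD-homo than control cells, as were 40.5% of the tested members. In HD-het cells, however, Areg was lower and Flt1 higher than in control. A link between motif and direction was not tested.

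Among the EGF ligands, amphiregulin and epiregulin exchanged places between the lines. Areg encodes amphiregulin, a ligand of EGFR, and was read at 281, 280.2 and 199.5 CPM in control libraries, 104.5, 101.4 and 55.6 in HD-het libraries and 31.9, 28.2 and 16.3 in HD-homo libraries. No library of 1 line overlapped another line, and the control line was highest. Areg was lower in HD-het than control cells with a log2 fold change of -1.54 (SE 0.27, edgeR adjusted p = 0.000473) and in HD-homo cells by -3.31 (SE 0.29, adjusted p = 3.36e-06), and was lower in HD-homo than HD-het cells by -1.77 (SE 0.28, adjusted p = 0.000153). Ereg encodes epiregulin, which binds EGFR and ERBB4, and was read at 21, 22.9 and 16.9 CPM in control libraries, 87.9, 91.9 and 64.8 in HD-het libraries and 217, 181.5 and 195.7 in HD-homo libraries. Here the order of the lines was turned around, again without overlap. Ereg was higher in HD-het (log2 fold change 2.01, SE 0.15, adjusted p = 1.26e-06) and in the HD-homo line (3.29, SE 0.16, adjusted p = 2.42e-08) than in control, and higher in HD-homo than HD-het cells (1.28, SE 0.14, adjusted p = 1.28e-05). The log2 ratio of Ereg to Areg in CPM, not scaled by coding length, was -3.64 ± 0.09 for control, -0.06 ± 0.25 for HD-het and 3.01 ± 0.5 for HD-homo cells (SD, n = 3). An exact permutation test, two-sided, gave p = 0.1 for each of these differences, which is the smallest value that n = 3 per line allows, and 0.1 after Benjamini-Hochberg adjustment over 6 such tests. As both genes already separated the lines, in opposite order, this outcome was fixed beforehand and the test adds no support.

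Hbegf, a membrane-anchored ligand of EGFR and ERBB4, was read at 367.5, 349.7 and 260.7 CPM in control libraries, 806, 660.4 and 697 in HD-het libraries and 251, 417.5 and 305 in HD-homo libraries. All HD-het libraries lay above all others, while control and HD-homo overlapped. The log2 fold change was 1.15 (SE 0.18, edgeR adjusted p = 0.000237) in HD-het against control and -1.15 (SE 0.18, adjusted p = 0.000163) in HD-homo against HD-het. The difference between HD-homo and control was -0.01 (SE 0.18) and did not pass the test. Neuregulin 1 (Nrg1), the ligand of ERBB3 and ERBB4, was read at 41.9, 41.8 and 39.3 CPM in control libraries, 50.4, 45.5 and 67.6 in HD-het libraries and 91.4, 72.4 and 102.3 in HD-homo libraries. HD-homo libraries were all above the other lines. It was 2.16-fold higher in HD-homo than control cells (edgeR adjusted p = 0.000128), and the smaller difference of HD-het from control (log2 fold change 0.41, adjusted p = 0.0381) was lost without control replicate 1, 2 or 3 (adjusted p = 0.0854, 0.0744 and 0.101), without HD-het replicate 1 (0.054) or 3 (0.205), and with offsets for GC content and length (0.063). At a much lower level, transforming growth factor alpha (Tgfa) rose to 1.2 CPM in HD-homo cells from 0.275 CPM in control (log2 fold change 2.24, edgeR adjusted p = 0.00129), and Nrg2 fell from a control mean of 1.39 CPM to means of 0.417 CPM in HD-het cells and 0.125 CPM in HD-homo libraries. Summed over Areg, Ereg, Hbegf, Tgfa and Nrg1, the CPM per coding kb was 925 ± 161 for control, 1470 ± 149 for HD-het and 1010 ± 95.8 for HD-homo cells (SD, n = 3). Within this sum Areg made up 36.8% for control, 7.93% for HD-het and 3.41% for HD-homo cells, and Ereg made up 4.53%, 11.4% and 40.9% in the same order.

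Of the receptors for these ligands, Egfr was highest in HD-het cells and Erbb3 in control cells. Egfr, the EGF receptor, was read at 97.2, 108 and 72.6 CPM in control libraries, 157.7, 169 and 205.8 in HD-het libraries and 96.1, 44.7 and 81 in HD-homo libraries. HD-het libraries stood above all others, and HD-homo replicate 2 was the lowest of all. Egfr was higher in HD-het than control cells (log2 fold change 0.94, SE 0.24, edgeR adjusted p = 0.00532) and lower in HD-homo than HD-het cells (-1.26, SE 0.24, adjusted p = 0.000664). Erbb2, the ERBB receptor without a ligand of its own, averaged 21.6 CPM for control, 25.5 CPM for HD-het and 24 CPM for HD-homo cells, and no difference passed the test. Erbb3, a neuregulin receptor with little kinase activity, fell from a control mean of 2.25 CPM to 0.371 CPM in HD-het (log2 fold change -2.57, edgeR adjusted p = 5.93e-05) and 0.576 CPM in HD-homo cells (-1.98, adjusted p = 0.000338). Erbb4, the other neuregulin receptor, stayed at or under 0.189 CPM in every library and was not tested.

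**Figure D3:**
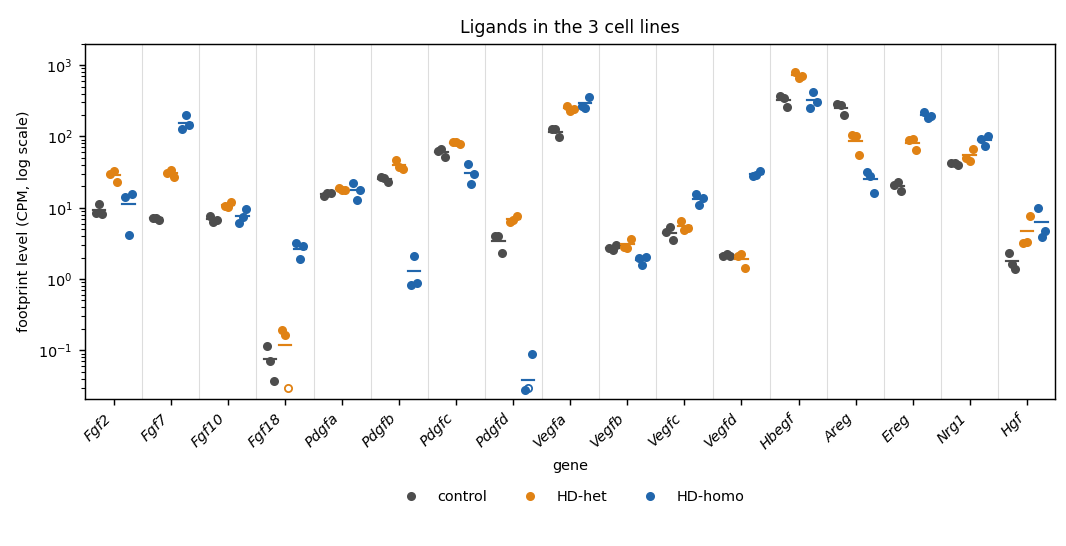
CPM of 17 ligands on a log axis, with 1 point per library, a bar at the mean of the 3 libraries of a line, and open points at the lower edge for libraries with no count. Areg steps down and Ereg and Fgf7 step up from control through HD-het to HD-homo, Vegfd is high in HD-homo alone, and Pdgfb and Pdgfd are low there.

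Among the FGF ligands Fgf7 rose in both mutant lines, most in HD-homo cells. It encodes keratinocyte growth factor, which acts on an epithelial splice form of FGFR2, and was read at 7.14, 7.25 and 6.81 CPM in control libraries, 30.9, 33.4 and 27.1 in HD-het libraries and 127.7, 199.1 and 143.2 in HD-homo libraries. The lines did not overlap, and HD-homo was highest. The log2 fold change was 2.11 (SE 0.16, edgeR adjusted p = 1.51e-06) in HD-het and 4.47 (SE 0.17, adjusted p = 4.86e-09) in HD-homo against control, and 2.36 (SE 0.15, adjusted p = 1.96e-07) in HD-homo against HD-het. Fgf2, basic FGF, a mitogen of neural precursors, was read at 8.48, 11.1 and 8.2 CPM in control libraries, 29.4, 32.7 and 22.8 in HD-het libraries and 14, 4.21 and 15.5 in HD-homo libraries. HD-het was highest without overlap, and HD-homo replicate 2 lay below the control libraries while the other HD-homo libraries lay above them. Fgf2 was higher in HD-het than control cells (log2 fold change 1.61, SE 0.35, edgeR adjusted p = 0.00215) and lower in HD-homo than HD-het cells (-1.33, SE 0.35, adjusted p = 0.00521). The difference between HD-homo and control (0.27, adjusted p = 0.568) became a call without HD-homo replicate 2 (0.66, adjusted p = 0.0103). Fgf10, a close relative of Fgf7, averaged 6.94, 11 and 7.6 CPM and was higher in HD-het than control cells (log2 fold change 0.66, adjusted p = 0.00428) and lower in HD-homo than HD-het cells (-0.54, adjusted p = 0.0117).

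Summed over Fgf2, Fgf7 and Fgf10, the CPM per coding kb was 43.3 ± 3.21 for control, 131 ± 14.8 for HD-het and 306 ± 52.7 for HD-homo cells (SD, n = 3). Fgf2 was the largest part in control (46.2% ± 4.76) and HD-het cells (46.5% ± 3.19), and Fgf7 in HD-homo cells (87.5% ± 5.92; SD, n = 3 each). Of the other FGF ligands 5 were tested, all under 3 CPM on average. Fgf18 averaged 2.66 CPM in HD-homo cells and lay at the floor in all control libraries, which made it at least 26.7-fold higher (edgeR adjusted p = 5.57e-06). Fgf21, a metabolic FGF that acts with the co-receptor beta-Klotho, rose from a control mean of 0.237 CPM to 0.993 CPM in HD-het cells and 1.44 CPM in HD-homo cells. Fgf5 and Fgf13, which averaged 0.767 and 0.765 CPM in control cells, had no count in the HD-homo libraries, so that they were at least 6.95-fold and 6.93-fold lower there. Fgf13 belongs to the FGF homologues that stay inside the cell. Fgf15 fell from a control mean of 0.963 CPM to 0.107 CPM in HD-het cells and 0.0646 CPM in HD-homo cells.

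All tested FGF receptors were higher in HD-het cells than in both other lines. Fgfr1, the most abundant of them, was read at 114, 117 and 99.6 CPM in control libraries, 156.5, 153.8 and 197.5 in HD-het libraries and 58.6, 44 and 54.1 in HD-homo libraries. The lines did not overlap, and HD-homo was lowest. The log2 fold change was 0.62 (SE 0.13, edgeR adjusted p = 0.00154) in HD-het and -1.08 (SE 0.13, adjusted p = 4.49e-05) in HD-homo against control, and -1.69 (SE 0.13, adjusted p = 7.53e-07) in HD-homo against HD-het. Fgfr2 was read at 13.3, 13.9 and 11.1 CPM in control libraries, 56.4, 51.4 and 69.4 in HD-het libraries and 9.01, 8.83 and 14.4 in HD-homo libraries. HD-het stood apart, while HD-homo replicate 3 lay above the control libraries and the other HD-homo libraries below them. Fgfr2 was 4.61-fold higher in HD-het than control cells (edgeR adjusted p = 2.99e-06) and 5.53-fold lower in HD-homo than HD-het cells (adjusted p = 7.15e-07). The difference between HD-homo and control (log2 fold change -0.26, adjusted p = 0.284) became a call without HD-homo replicate 3 (-0.52, adjusted p = 0.0214).

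Fgfr3 was read at 2.6, 2.28 and 1.88 CPM in control libraries, 5.77, 4.79 and 6.71 in HD-het libraries and 1.98, 1.87 and 2.4 in HD-homo libraries. Fgfrl1, an FGF receptor without a kinase domain, was read at 10.7, 9.85 and 6.62 CPM in control libraries, 24, 20.5 and 23.2 in HD-het libraries and 12.6, 7.57 and 13 in HD-homo libraries. For both genes the HD-het libraries were above all others, and control and HD-homo overlapped. In HD-het against control cells Fgfr3 had a log2 fold change of 1.34 (SE 0.18, edgeR adjusted p = 8.07e-05) and Fgfrl1 of 1.32 (SE 0.21, adjusted p = 0.000258). In HD-homo against HD-het cells the values were -1.46 (SE 0.19, adjusted p = 3.24e-05) and -1.03 (SE 0.21, adjusted p = 0.00103). The difference of Fgfrl1 between HD-homo and control (0.29, adjusted p = 0.294) passed the threshold without HD-homo replicate 2 (0.50, adjusted p = 0.0371). Per coding kb the 4 receptors summed to 55.8 ± 5.76 CPM for control, 108 ± 14.3 for HD-het and 33 ± 5.51 for HD-homo cells (SD, n = 3).

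**Figure D4:**
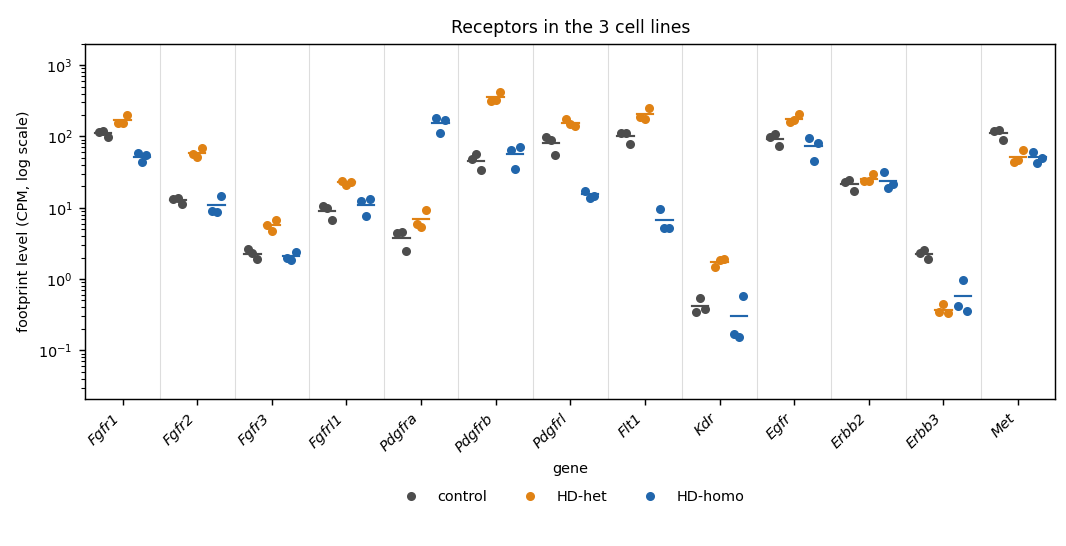
CPM of 13 receptors on a log axis, with 1 point per library and a bar at the mean of the 3 libraries of a line. Most receptors are highest in HD-het cells, Pdgfra is high in HD-homo cells, where Flt1 and Pdgfrl are low, and Met and Erbb3 are highest in control cells.

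Pdgfrb was the more abundant PDGF receptor in control and HD-het cells, and Pdgfra in HD-homo cells. Pdgfra, which binds most PDGF dimers, was read at 4.39, 4.54 and 2.48 CPM in control libraries, 5.85, 5.31 and 9.41 in HD-het libraries and 181.6, 113.4 and 170.5 in HD-homo libraries. The HD-homo libraries lay far above all others. The log2 fold change was 5.33 (SE 0.29, edgeR adjusted p = 6.34e-08) in HD-homo against control and 4.52 (SE 0.27, adjusted p = 1.14e-07) in HD-homo against HD-het. The smaller rise in HD-het over control (0.81, adjusted p = 0.0279) was lost without control replicate 3 (0.59, adjusted p = 0.0935), without HD-het replicate 3 (0.51, adjusted p = 0.134) and with offsets for GC content and length (0.67, adjusted p = 0.0696).

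Pdgfrb, the receptor of PDGF-BB and PDGF-DD, was read at 47.7, 56.5 and 33.6 CPM in control libraries, 312, 325 and 423.7 in HD-het libraries and 64.1, 34.7 and 70.1 in HD-homo libraries. Here the HD-het libraries stood far above the others, and control and HD-homo overlapped. Pdgfrb was 7.68-fold higher in HD-het than control cells (edgeR adjusted p = 4.31e-06) and 6.28-fold lower in HD-homo than HD-het cells (adjusted p = 4.63e-06). Between HD-homo and control the log2 fold change was 0.29 (adjusted p = 0.369), and 0.54 (adjusted p = 0.0411) without HD-homo replicate 2. Of the CPM per coding kb of both receptors, Pdgfra made up 7.68% ± 0.792 for control, 1.9% ± 0.288 for HD-het and 74% ± 2.84 for HD-homo cells (SD, n = 3). The log2 ratio of Pdgfra to Pdgfrb in CPM, not scaled by coding length, was -3.61 ± 0.16 for control, -5.72 ± 0.22 for HD-het and 1.5 ± 0.21 for HD-homo cells (SD, n = 3). The exact permutation test gave p = 0.1 for each difference, the smallest it can give. The receptor-like gene Pdgfrl, which encodes a secreted protein related to the receptor, was read at 97.5, 88.7 and 54.5 CPM in control libraries, 175.8, 148.6 and 141.9 in HD-het libraries and 17.4, 13.9 and 14.7 in HD-homo libraries. The lines did not overlap. Pdgfrl was 1.94-fold higher in HD-het (edgeR adjusted p = 0.000917) and 5.22-fold lower in HD-homo cells (adjusted p = 2.08e-06) than in control, and 10.1-fold lower in HD-homo than HD-het cells (adjusted p = 1.14e-07).

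Markers of cell types that carry these receptors in tissue also differed between the lines. The summed level of 6 fibroblast markers, mostly Col1a1, lay between 2570 and 4750 CPM in control, 15900 and 20200 CPM in HD-het, and 5390 and 6710 CPM in HD-homo libraries, with Lum at or under the floor in control and HD-het cells. Not all of them were highest in HD-het cells, as Col1a2 averaged 24, 88.9 and 1030 CPM and Dcn 7.3, 11.5 and 40.6 CPM from control through HD-het to HD-homo. The sum of 7 pericyte or smooth muscle markers, mostly Acta2, ran from 3960 to 4520, 7420 to 9510 and 299 to 462 CPM, while Rgs5 and Kcnj8 lay at or under the floor in every line. Acta2 itself averaged 4100, 8390 and 267 CPM, but Myh11 averaged 81.5, 105 and 62.4 CPM and Des 75.8, 70.6 and 47.6 CPM. Of 6 markers of oligodendrocyte precursors, Olig1, Olig2 and Gpr17 lay at or under the floor in every line, and their sum, mostly Cspg4, ran from 35.2 to 66.1, 228 to 340 and 35.9 to 68.4 CPM. The part of these differences in the PDGF receptor results was not tested. In such bulk libraries fewer cells of a type and less RNA per cell cannot be told apart.

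The PDGF ligands were lower in HD-homo cells with the exception of Pdgfa. Pdgfb, the ligand of both PDGF receptors, was read at 27.2, 26.5 and 22.9 CPM in control libraries, 46, 37.4 and 34.4 in HD-het libraries and 0.834, 2.1 and 0.887 in HD-homo libraries. Pdgfd, which acts on PDGF receptor beta, was read at 3.97, 4.02 and 2.33 CPM in control libraries, 6.26, 6.74 and 7.66 in HD-het libraries and 0.0278, 0 and 0.0887 in HD-homo libraries. For both genes HD-het was highest and HD-homo lowest, without overlap. Pdgfb was 20.3-fold lower in HD-homo than control cells (edgeR adjusted p = 1.71e-07) and 31.2-fold lower than in HD-het cells (adjusted p = 4.22e-08). Pdgfd lay at or under the floor in the HD-homo libraries and was at least 31.2-fold lower there than in control cells (edgeR adjusted p = 7.67e-07) and at least 62.4-fold lower than in HD-het cells (adjusted p = 9.02e-08). In HD-het against control cells Pdgfb had a log2 fold change of 0.62 (adjusted p = 0.0178) and Pdgfd of 0.99 (adjusted p = 0.00256), and the call for Pdgfb was lost without control replicate 3 (0.55, adjusted p = 0.0634) and without HD-het replicate 1 (0.48, adjusted p = 0.0953).

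Pdgfc, which had the highest mean of the PDGF ligands in each line, was read at 61.8, 66.8 and 52.2 CPM in control libraries, 82.2, 83.2 and 77.7 in HD-het libraries and 40.7, 21.7 and 29.9 in HD-homo libraries. The lines did not overlap, and HD-homo was lowest. Pdgfc was lower in HD-homo than in control (log2 fold change -0.97, SE 0.18, edgeR adjusted p = 0.00123) and in HD-het cells (-1.39, SE 0.18, adjusted p = 4.46e-05). The difference of HD-het from control (0.43, adjusted p = 0.0586) passed the threshold under 5 alternatives, which included DESeq2 (adjusted p = 0.0472) and leaving out HD-homo replicate 1 (0.0128) or 2 (0.0104). Pdgfa averaged 15.6 CPM for control, 18.1 CPM for HD-het and 17.6 CPM for HD-homo cells with no call, although a call between HD-homo and control appeared without HD-homo replicate 2 (0.36, adjusted p = 0.0212) and 1 between HD-het and control in the fit of only the 6 libraries compared (0.22, adjusted p = 0.0398) and with offsets for GC content and length (0.35, adjusted p = 0.0476). Of the summed CPM per coding kb of the 4 ligands, Pdgfc made up 47.9% and Pdgfa 20.4% in control cells, and Pdgfc 49.6% and Pdgfa 46.9% in HD-homo cells, and the sum itself was 121 ± 10.9, 167 ± 10.3 and 59.3 ± 15.4 (SD, n = 3).

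**Figure D5:**
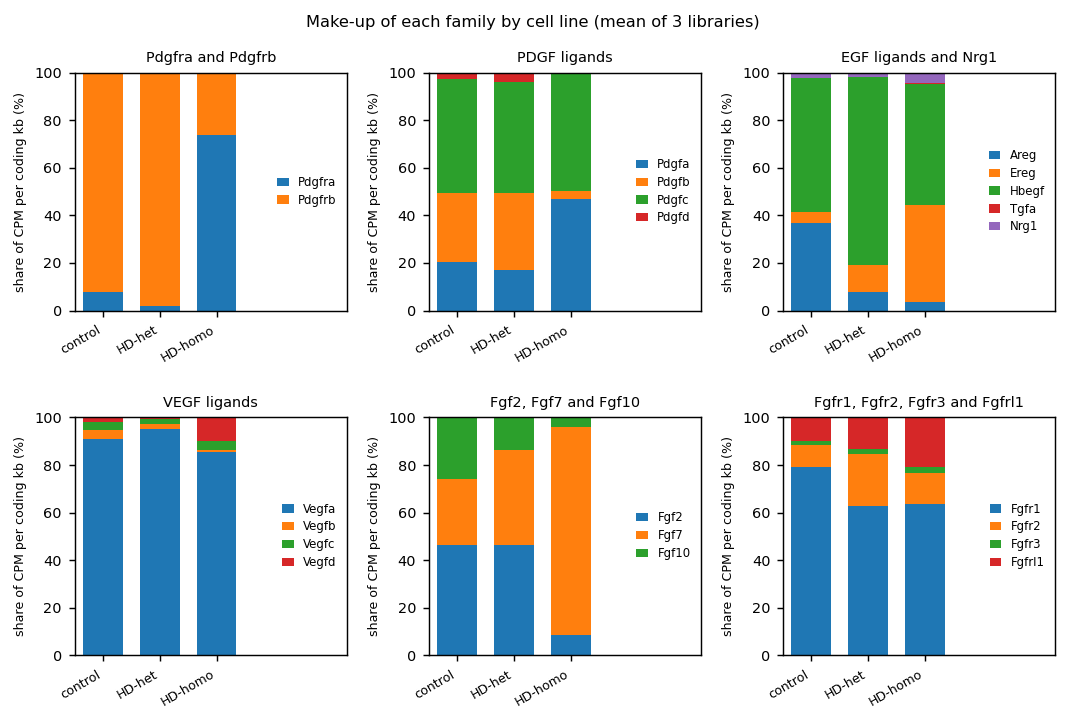
Mean share of each gene in the summed CPM per coding kb of its family, in percent, for 3 libraries of each line. Pdgfra makes up 74% of both PDGF receptors in HD-homo cells, Areg gives way to Ereg from control to HD-homo, and Fgf7 makes up 87.5% of Fgf2, Fgf7 and Fgf10 in HD-homo cells.

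The VEGF ligands rose in HD-homo cells with the exception of Vegfb, while the receptor Flt1 fell. Vegfa, the main growth factor of vessel sprouting, was read at 125.2, 125.7 and 98 CPM in control libraries, 269.2, 228.4 and 245.2 in HD-het libraries and 264.1, 249.4 and 359.9 in HD-homo libraries. Both mutant lines lay above control and overlapped each other. Vegfa was higher in HD-het (log2 fold change 1.09, SE 0.15, edgeR adjusted p = 7.49e-05) and in the HD-homo line (1.32, SE 0.15, adjusted p = 2.32e-05) than in control. Vegfd, a growth factor of lymph vessels that lies at chrX:164373522-164402650, was read at 2.1, 2.26 and 2.07 CPM in control libraries, 2.12, 2.23 and 1.42 in HD-het libraries and 27.4, 29.1 and 33.1 in HD-homo libraries. HD-homo stood apart, and the other lines overlapped. Vegfd was 13.9-fold higher in HD-homo than in control (edgeR adjusted p = 7.15e-09) and 15.2-fold higher than in HD-het cells (adjusted p = 4.64e-09). Vegfc, the other lymphatic factor, was read at 4.54, 5.28 and 3.5 CPM in control libraries, 6.53, 4.89 and 5.2 in HD-het libraries and 15.8, 10.9 and 13.6 in HD-homo libraries. It was 3-fold higher in HD-homo than control cells (edgeR adjusted p = 3.74e-05) and 2.43-fold higher than in HD-het cells (adjusted p = 8.89e-05). Vegfb averaged 2.74 CPM in control and 1.86 CPM in HD-homo cells (log2 fold change -0.55, adjusted p = 0.0266), a call that was lost without control replicate 1 (adjusted p = 0.0574) or 3 (0.0843) and without HD-homo replicate 2 (0.0786).

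Flt1, VEGF receptor 1, which binds VEGFA tightly and also occurs as a soluble trap, was read at 111.2, 112.8 and 77.5 CPM in control libraries, 185.7, 174.7 and 251 in HD-het libraries and 9.62, 5.27 and 5.23 in HD-homo libraries. The lines did not overlap, with HD-het highest and HD-homo lowest. The log2 fold change was 1.02 (SE 0.22, edgeR adjusted p = 0.00202) in HD-het and -3.88 (SE 0.26, adjusted p = 3.6e-07) in HD-homo against control, and -4.9 (SE 0.27, adjusted p = 4.97e-08) in HD-homo against HD-het. Kdr, VEGF receptor 2, the main signalling receptor of endothelial cells, stayed under 2 CPM in all libraries. It averaged 0.422, 1.75 and 0.299 CPM and was 3.98-fold higher in HD-het than control cells (edgeR adjusted p = 0.000554) and 6.22-fold lower in HD-homo than HD-het cells (adjusted p = 0.000113). Between HD-homo and control its log2 fold change was -0.64 (adjusted p = 0.284), and -1.42 (adjusted p = 0.0184) without HD-homo replicate 3. The summed level of 8 endothelial markers did not exceed 1.02 CPM in any library, and Tie1, Cldn5, Emcn and Esam lay at or under the floor in every line.

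The hepatocyte growth factor Hgf and its receptor Met moved in opposite directions. Hgf was read at 2.33, 1.62 and 1.39 CPM in control libraries, 3.15, 3.3 and 7.75 in HD-het libraries and 10, 3.94 and 4.66 in HD-homo libraries. All libraries of the mutant lines lay above control, with wide spread within each mutant line. Hgf was higher than control in HD-homo (log2 fold change 1.83, SE 0.43, edgeR adjusted p = 0.00498) and in HD-het cells (1.39, SE 0.44, adjusted p = 0.0179), the latter lost without control replicate 2 or 3 (1.31 and 1.25, adjusted p = 0.0554 each) or HD-het replicate 3 (0.85, adjusted p = 0.0927). The difference between HD-homo and HD-het (0.45, adjusted p = 0.342) passed the threshold without HD-het replicate 3 (0.97, adjusted p = 0.0431). Met was read at 120.2, 122 and 89.1 CPM in control libraries, 43.4, 46.2 and 64.1 in HD-het libraries and 61.1, 41.7 and 50.2 in HD-homo libraries. Control lay above both mutant lines, which overlapped each other. Met was lower than in control cells in HD-het (edgeR adjusted p = 0.000296) as well as in HD-homo cells (adjusted p = 0.000418), with a log2 fold change of -1.11 for each (SE 0.18).

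The feedback inhibitors did not follow 1 direction. Spry1 was read at 2.56, 3.09 and 2.52 CPM in control libraries, 4.74, 5.66 and 4.63 in HD-het libraries and 0.556, 1.07 and 0.665 in HD-homo libraries, without overlap between the lines. Spry4 was read at 8.4, 7.61 and 6.62 CPM in control libraries, 11.6, 11.7 and 6.67 in HD-het libraries and 2.31, 2.29 and 1.64 in HD-homo libraries. Spry2 was read at 20.5, 19.3 and 23.1 CPM in control libraries, 12.6, 10.5 and 8.98 in HD-het libraries and 18.1, 29.9 and 18.3 in HD-homo libraries. HD-homo was thus lowest for Spry1 and Spry4, and HD-het was lowest for Spry2. In HD-homo against control cells Spry1 had a log2 fold change of -1.86 (SE 0.24, edgeR adjusted p = 6.88e-05) and Spry4 of -1.84 (SE 0.23, adjusted p = 6.08e-05). Spry2 was lower in HD-het than control cells (-0.96, SE 0.2, adjusted p = 0.00136) and higher in HD-homo than HD-het cells (1.04, SE 0.2, adjusted p = 0.000632). Spry1 was higher in HD-het than control cells (0.88, SE 0.19, adjusted p = 0.00232). The difference of Spry4 between HD-het and control (0.41, adjusted p = 0.101) passed the threshold with the replicate block (0.38, adjusted p = 0.0402) and without HD-het replicate 3 (0.60, adjusted p = 0.00717).

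The phosphatases changed by less than 2-fold in every comparison. Dusp5, which acts on ERK in the nucleus and was the most abundant of them, was read at 81.5, 79.6 and 79 CPM in control libraries, 76.7, 70.9 and 58.6 in HD-het libraries and 82.5, 95.3 and 80.9 in HD-homo libraries. Its only call was between HD-homo and HD-het (log2 fold change 0.33, edgeR adjusted p = 0.0165), and this was lost without HD-het replicate 3 (0.23, adjusted p = 0.0584), without HD-homo replicate 2 (0.25, adjusted p = 0.0552) and in the fit of only the 6 libraries compared (0.30, adjusted p = 0.0604), while a call of HD-het below control appeared without HD-het replicate 1 (-0.32, adjusted p = 0.0364). Dusp6, which acts on ERK in the cytoplasm, averaged 51.8, 30.8 and 36.3 CPM and was lower than control in HD-het (-0.75, SE 0.15, adjusted p = 0.0012) and in the HD-homo line (-0.51, SE 0.15, adjusted p = 0.0158). Its difference between HD-homo and HD-het (0.24, adjusted p = 0.178) passed without HD-homo replicate 3 (0.41, adjusted p = 0.0104). Dusp4 averaged 38.8, 31.5 and 36 CPM with no call, but passed in HD-het against control with total counts (-0.35, adjusted p = 0.0447), in the fit of 6 libraries (-0.30, adjusted p = 0.0283) and without HD-homo replicate 2 (-0.30, adjusted p = 0.0357), and in HD-homo against HD-het without HD-homo replicate 2 (0.33, adjusted p = 0.036).

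The other genes of the pathway were read from 3 lists. Of 24 tested genes of the RAS-ERK cascade, 7 were higher and 7 lower in HD-het, and 6 higher and 6 lower in HD-homo cells than in control, with medians of 0.04 and -0.02 on the log2 scale. The adaptor Gab2 was 4.14-fold lower (edgeR adjusted p = 1.06e-07) and the RAS exchange factor Sos2 2.98-fold lower (adjusted p = 2.09e-06) in HD-homo than in control cells. The kinase Rps6ka1, a target of ERK, was 2.32-fold lower in HD-het than in control (edgeR adjusted p = 2.51e-05) and 3.25-fold higher in HD-homo than HD-het cells (adjusted p = 1.13e-06). Of 23 tested genes that respond to ERK, 5 were higher and 7 lower in each mutant line than in control, with medians of -0.13 and 0.03. The shares called were 58.3% and 50.0% for the cascade and 52.2% for ERK-responsive genes in each comparison with control, beside 60.1% and 45.7% of all genes. Among the latter list the cyclin Ccnd1 fell from a control mean of 457.6 CPM to 78.2 CPM in HD-het (log2 fold change -2.55, edgeR adjusted p = 3.15e-07) and 158.9 CPM in HD-homo cells (-1.53, adjusted p = 9.29e-06), and the ETS factor Etv4 from 22.1 CPM to 7.44 and 4.47 CPM (-1.58 and -2.29, adjusted p = 2.23e-05 and 1.86e-06). Others of the list were higher, such as the early response factor Egr2 in HD-het against control (3.12-fold, adjusted p = 0.000178) and the receptor gene Il1rl1 in HD-homo against control (2.68-fold, adjusted p = 0.00106). In HD-homo against HD-het cells 6 of the cascade were higher and 10 lower, and of the ERK-responsive list 7 were higher and 6 lower. The medians were -0.1 and -0.08, and the shares called 66.7% and 56.5%, beside 67.5% of all genes. Among the 7 higher, Errfi1, an inhibitor of EGFR, was 3.19-fold, Ier3 2.84-fold and the AP-1 subunit Fosl1 2.33-fold higher (edgeR adjusted p = 2.28e-05, 3.2e-06 and 3.37e-06).

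The last list held mostly receptors and co-receptors outside the set, but also the ligand Kitl and the enzymes Sulf1 and Sulf2. Of its 20 tested genes, 13 were higher and 2 lower in HD-het than control cells. In HD-homo cells 7 were higher and 7 lower than in control, and 3 higher and 14 lower than in HD-het. The shares called were 75.0%, 70.0% and 85.0%, beside 60.1%, 45.7% and 67.5% of all genes. Their median log2 fold changes were 0.66, 0.08 and -0.9. The semaphorin and VEGF co-receptor Nrp2 was 4.92-fold lower (edgeR adjusted p = 8.68e-07) and the VEGFC receptor Flt4 4.51-fold lower (adjusted p = 2.66e-06) in HD-homo than in control cells. The collagen receptor Ddr2 was 19.4-fold higher in HD-homo than in control (edgeR adjusted p = 1.78e-09), and Kitl, the ligand of KIT, was 12.4-fold higher in HD-homo than HD-het cells (adjusted p = 1.57e-07), although Kit itself had no count. Sulf1, an enzyme that trims the heparan sulfate to which FGFs bind, averaged 0.0935 CPM in control libraries, 29.5 in HD-het libraries and 2.54 in HD-homo libraries.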

How the data were processed

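The authors deposited whole-number counts of ribosome footprints per gene symbol, 1 column per library, neither normalized nor pooled. Per the submitters' processing notes, cutadapt, Bowtie 1.0.1 and the mm10 build were used. The counting program, annotation and use of strand are not given in the sources used here. Columns were matched to samples by name, and no other columns were present. Differences were tested with edgeR 4.0.16 (limma 3.58.1, R 4.3.3), quasi-likelihood F test, TMM factors, filterByExpr by group and group means as terms, in 1 fit of all 9 libraries. A count test for genes is not described in the study's methods, and the usual one was taken. P-values were adjusted by Benjamini-Hochberg over 12678 genes, with a threshold of 0.05. The script was tested on simulated data. Where all libraries of a line lay at or under 3 counts, a lower bound against that floor replaces the fold change. Coordinates came from RefSeq GRCm38.p6, the assembly behind mm10, and coding lengths from GENCODE M21, which held 61 of the 62 members.

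Library values are given for members called in a comparison with at least 5 CPM in the highest line and at least a 2-fold change there, and for the most abundant member of each role. Of the pathway lists, up to 3 genes per list and comparison with at least 10 CPM and the largest called changes could be named. Pathway and marker lists were written from general knowledge. The members and lists were chosen with earlier results of these data known. Alternatives were RLE size factors, total counts, DESeq2 1.42.0, leaving out each library, a replicate block, a fit of the 6 libraries compared alone, no low-count filter or 1 that asked for 10 counts in all libraries, and calls at 0.01 or with at least a 2-fold change. Offsets for coding GC content and coding length (loess, span 0.5), known for 96.947% of the tested genes, were chosen after seeing the data. Matched mRNA libraries were not used here.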

Additional observations from a re-analysis of the deposited data

How the results depend on the processing

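The counts of members called kept within 1.5 times under the alternatives, with 1 exception. Requiring at least a 2-fold change left 19 of the 30 members called in HD-het against control cells, since that rule leaves out the smaller changes by construction. Leaving out each library in turn gave 26 to 32 members for HD-het against control, 27 to 31 for HD-homo against control and 32 to 33 between both mutant lines. Asking for 10 counts in all libraries tested fewer genes and gave 24, 19 and 25. Of 81 log2 fold changes of 27 members, 68 kept direction and side of the threshold under every alternative run. Over 1374 alternative values, 17 lost and 13 gained a call and 0 reversed a called change, and the cause was not tested. With the replicate block 31, 28 and 32 members were called, in the same order. The correlations of deviations from the line means ran from -0.356 to 0.175 for libraries of different lines with the same number. For libraries with different numbers they ran from -0.275 to 0.376. Whether libraries with the same number share a culture round or batch cannot be told from these correlations. Members near the floor, such as Fgf5, Fgf13 and Fgf18, are limited by depth.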
